A study of Mus musculus with 17 samples.

Results

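The 10 genes described here make and regulate the major histocompatibility complex (MHC) class II molecule: H2-Aa, H2-Ab1, H2-Eb1, Cd74, Ciita, H2-DMa, H2-DMb1, H2-DMb2, H2-Oa and H2-Ob. They were found by matching the Ensembl gene identifiers of the deposited count table to their symbols, and they are 10 of 47643 gene rows. All 10 passed the filter on low counts and so belong to the 19951 genes tested. The genes were chosen because their RNA was known to be low in the leukaemic libraries. Values that set leukaemic against Normal libraries are therefore given for these 10 genes as a description, and the count that passed there is printed but nothing is read from it. The 10 genes are tested in contrasts within the Normal libraries, within the leukaemic libraries, and in a difference of differences that uses both. Other genes of the pathway are tested between leukaemic and Normal libraries.

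RNA was measured in 17 libraries of bone marrow cells from mice, sorted by flow cytometry as cKit+ and as negative for lymphoid and erythroid surface markers, which enriches haematopoietic stem and progenitor cells. The mice differed at an upstream regulatory element (URE) of Spi1, the gene for the transcription factor PU.1, and at Tet2, which encodes an enzyme that oxidizes methylated cytosine in DNA. There were 3 wild-type libraries (URE+/+;Tet2+/+, WT), 3 with 1 deleted copy of the element (UREΔ/+;Tet2+/+, URE het), 3 lacking 1 copy of Tet2 (URE+/+;Tet2+/-, Tet2 het) and 3 lacking both (URE+/+;Tet2-/-, Tet2 KO), and these 12 were labelled Normal. The compound mutants, 2 URE het Tet2 het libraries (UREΔ/+;Tet2+/-) and 3 URE het Tet2 KO libraries (UREΔ/+;Tet2-/-), were all labelled AML (acute myeloid leukaemia). Leukaemia and compound genotype therefore cannot be told apart. The controls were described as matched in age. The sources used here do not give ages, strain, or the cells or stage in which the alleles were altered. Nothing says that each library is a separate mouse, so p-values measure the spread between these libraries.

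Class II molecules are pairs of an alpha and a beta chain that carry peptides from endosomes to the cell surface, where CD4+ T cells read them. In the mouse, H2-Aa and H2-Ab1 encode the chains of I-A, and H2-Eb1 encodes the beta chain of I-E. Cd74, the invariant chain, fills the groove of new molecules and leads them to endosomes. H2-DM, made of H2-DMa with H2-DMb1 or H2-DMb2, then exchanges the last fragment of Cd74 for peptide, and H2-O (H2-Oa with H2-Ob) restrains H2-DM. Ciita, the class II transactivator, binds no DNA itself. It is recruited to a module of short boxes (W or S, X, X2 and Y) in the promoters of these genes by the RFX, CREB and NF-Y proteins. In bone marrow the pathway is best known in dendritic cells, B cells and monocytes.

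Promoter sequences could be read for some of the genes. RefSeq promoters (GRCm38.p6, 250 bases before to 50 after each start) matched 7 of the 10 genes, and those of H2-Ab1, Cd74 and Ciita were not in the table. The stretch around the boxes is shown for 6 of the 7 on chromosome 17, 5′ to 3′ on the strand of the gene, to show where the X and Y boxes of the module were found and where not. H2-DMa, the seventh, had ATTGG but neither pair of boxes searched below, and is not shown. Capitals mark the X box core and the Y box ATTGG (the reverse complement of CCAAT).
H2-Aa, chr17:34287855-34287916, minus strand: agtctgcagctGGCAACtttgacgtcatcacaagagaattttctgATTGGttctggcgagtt
H2-Eb1, chr17:34305764-34305824, plus strand: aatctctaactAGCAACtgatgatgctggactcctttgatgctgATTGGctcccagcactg
H2-Ob, chr17:34238806-34238864, plus strand: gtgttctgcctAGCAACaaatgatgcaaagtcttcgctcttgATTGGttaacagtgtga
H2-Oa, chr17:34092291-34092352, plus strand: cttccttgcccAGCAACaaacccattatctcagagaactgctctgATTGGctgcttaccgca
H2-DMb1, chr17:34153085-34153146, plus strand: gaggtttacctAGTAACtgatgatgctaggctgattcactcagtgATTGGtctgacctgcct
H2-DMb2, chr17:34145114-34145175, plus strand: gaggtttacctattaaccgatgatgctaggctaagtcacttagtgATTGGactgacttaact

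The core AGCAAC followed by ATTGG on the same strand, with 10 to 35 bases between, was found in 3 of the 7 promoters (H2-Eb1, H2-Oa and H2-Ob). Searched on both strands, that pair stood in 0.423% of 32851 promoters of the same length. A looser core, GNAAC, chosen after these sequences were seen, added H2-Aa and H2-DMb1 and stood with ATTGG in 4.19% of promoters. In the 5 promoters with both boxes 25 to 28 bases lay between them. The H2-DMb2 stretch had ATTGG and no such core, and was identical to that of H2-DMb1 at 53 of 62 bases. ATTGG alone was in all 7 promoters and in 37.4% of all promoters. AGCAAC alone was in 3 of the 7 and in 14.8%, and TGACGTCA (a CRE) was in H2-Aa and in 1.79%. In H2-Aa it stood just after the X core and before the Y box, where the module has X2. No promoter of the 7 held GAGGAAGT, a PU.1 motif present in 3.202% of promoters, or the interferon response motif searched (GAAA, any 2 bases, GAAA), present in 3.44%. These are matches of letters, not binding sites.

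Gene counts came to 21.1 to 38.3 M per library. Levels are CPM, counts scaled to library size with trimmed means (TMM), and CPM per kb of exon where levels of different genes are set side by side. Spi1 lay between 45.3 and 137 CPM in the 12 Normal libraries and at 21.6, 34.9, 98.6, 7.83 and 12.2 CPM in URE het Tet2 het replicates 1 and 2 and URE het Tet2 KO replicates 1, 2 and 3. Tet2 RNA, of which the deleted part is not given, was 80.2 to 86.3 CPM in Tet2 KO and 108 to 133 CPM in WT, but 112, 113 and 176 CPM in the 3 URE het Tet2 KO libraries, within or above the WT range. It was 92.5 to 114 CPM in Tet2 het, and 234 and 156 in URE het Tet2 het. The RNA level was thus not low in the compound libraries labelled Tet2-/-, and it does not check the Tet2 labels. Kit was present in every library (100 to 187 CPM in Normal and 117 to 170 in AML). URE het Tet2 het replicate 2 stood apart from the other AML libraries: Cd34, a progenitor marker, was at 73.6 CPM there, within the Normal range of 59.4 to 145, and at 10.1 CPM or less in the other 4. Differences of AML from Normal are given below with that library and then without it.

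In Normal progenitors the class II genes were transcribed at very unequal levels per length. Median CPM per kb in the 12 Normal libraries fell from 14.4 for Cd74 through 5.89 for H2-DMa, 5.61 for H2-Aa, 5.16 for H2-Ab1 and 5.07 for H2-DMb1. The other 5 were at 1.77 (H2-DMb2), 1.45 (H2-Eb1), 1.38 (H2-Ob), 1.31 (H2-Oa) and 0.241 (Ciita). At 3 places this order held in nearly every library: Cd74 was above H2-DMa in 11 of 12, H2-DMb1 above H2-DMb2 in 12 of 12, and H2-Oa above Ciita in 12 of 12. Every other neighbour was the higher of its pair in 6 to 8 of 12 libraries, so those pairs did not differ beyond their spread. H2-Eb2, another class II beta chain, had 0 to 0.298 CPM in all libraries, and H2-Ea-ps, the alpha chain locus that pairs with H2-Eb1, had no count in any; neither was tested.

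Across the 12 Normal libraries, 5 of the 10 genes varied more widely than the other 5. The antigen-presenting chains, Cd74 and Ciita varied widely from library to library. H2-Aa ran from 6.19 to 89.8 CPM (14.5-fold), H2-Ab1 from 3.39 to 61.2 (18.0-fold), H2-Eb1 from 0.566 to 14.6 (25.8-fold), Cd74 from 8.38 to 99.4 (11.9-fold) and Ciita from 0.998 to 12.3 (12.3-fold). The H2-DM and H2-O genes varied less: H2-DMa from 14.5 to 29.8 CPM (2.05-fold), H2-DMb1 2.29-fold, H2-DMb2 2.92-fold, H2-Oa 2.24-fold and H2-Ob 3.77-fold. For all 5 genes of the first group the highest library was Tet2 het replicate 1 and the lowest was Tet2 KO replicate 2. The next highest was Tet2 het replicate 3, except for H2-Ab1, where it was Tet2 KO replicate 1 (34.3 CPM). Pairs among these 5 genes had a median Pearson r of log2 CPM of 0.92. The median was 0.34 for pairs among the H2-DM and H2-O genes and 0.50 for pairs between the sets, so the H2-DM and H2-O genes were no tight group. H2-Oa had an r of 0.86 with Cd74 and 0.75 with H2-Aa.

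Ciita rose and fell with the presenting chains and hardly with H2-DMa. Over the 12 Normal libraries the Pearson r of log2 CPM with Ciita was 0.95 for H2-Aa (Spearman rho 0.94), 0.92 for H2-Eb1 (0.92), 0.91 for Cd74 (0.84) and 0.86 for H2-Ab1 (0.89). It was 0.71 for H2-DMb2 (rho 0.47) and 0.64 for H2-Oa (0.52), and lower for H2-Ob (0.30, rho 0.31), H2-DMb1 (0.28, rho 0.20) and H2-DMa (0.04, rho 0.14). Leaving out the 2 libraries farthest from the median of Ciita, Tet2 het replicates 1 and 3, left r at 0.76 to 0.88 for the 4 genes H2-Aa, H2-Ab1, H2-Eb1 and Cd74 and at -0.08 to 0.30 for the other 5. The libraries share depth, cell mixture and title number, so these values are a description and carry no p. Library titles run from 1 to 17, and numbers 1 to 7 and 8 to 17 each hold every genotype; the labels do not call this a batch. With each of these ranges centred on its own mean, r with Ciita stayed at 0.90 to 0.94 for the 4 genes. It was 0.31 for H2-DMa, 0.26 for H2-Ob, 0.69 for H2-DMb2 and 0.71 for H2-Oa, and rose to 0.70 for H2-DMb1.

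**Figure D1:**
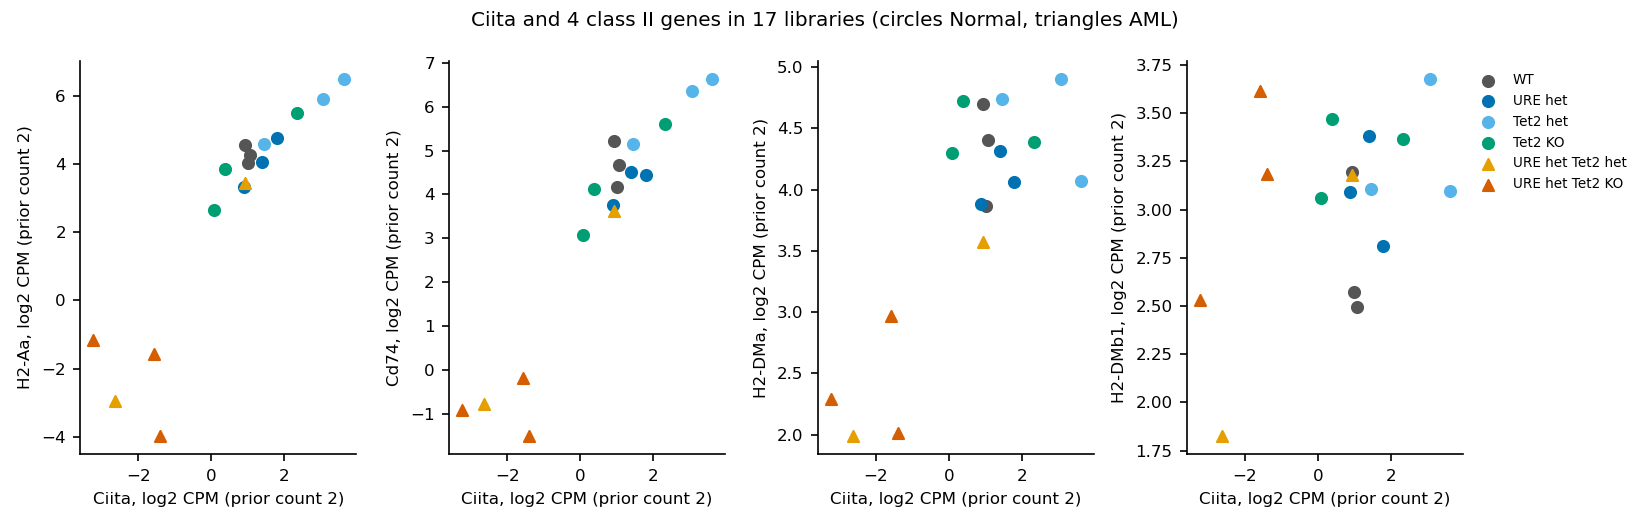
Each panel plots log2 CPM (prior count 2) of a class II gene against that of Ciita in 17 libraries, coloured by genotype, with circles for Normal and triangles for AML. H2-Aa and Cd74 lie along a line with Ciita in the 12 Normal libraries (r = 0.95 and 0.91), H2-DMa (0.04) and H2-DMb1 (0.28) do not, and 4 of the 5 triangles sit apart at low Ciita.

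Some of the genes differed between title numbers 1 to 7 and 8 to 17, as did a large share of all genes. Within the Normal libraries, in a fit with genotype, H2-Ab1 was lower in numbers 8 to 17 than in 1 to 7 by a log2 difference of -1.80 ± 0.31 (SE, edgeR quasi-likelihood F test, Benjamini-Hochberg adjusted p = 0.00156), and Ciita by -1.04 ± 0.33 (edgeR adjusted p = 0.0253). H2-Ab1 was at 16.6, 18.3, 17.04, 34.3 and 61.2 CPM in the 5 Normal libraries numbered 1 to 7, and Ciita at 1.94, 2.03, 3.41, 5.002 and 12.3 CPM. In the 7 numbered 8 to 17, H2-Ab1 ran from 3.39 to 23.6 and Ciita from 0.998 to 8.30, so both genes overlapped between the ranges. The 2 of 10 genes compare with 36.4% of 18282 genes that passed in that fit, and 19.3% that were lower. H2-Ab1 passed in each of 17 alternative fits and Ciita in 13. The count of 2 was 1 without Tet2 KO replicate 1, Tet2 het replicate 1 or Tet2 KO replicate 3, and 4 without WT replicate 3.

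No single mutation moved a class II gene past the test. Loss of 1 URE copy, of 1 Tet2 copy and of both Tet2 copies against WT, and Tet2 KO against Tet2 het, each gave 0 of 10 genes at an adjusted p under 0.05 with edgeR, as with DESeq2 and limma voom. Over all 19951 genes edgeR also passed 0.0% in each. At an unadjusted p under 0.05, 0, 1, 0 and 0 of the 10 genes passed, against 3.77%, 2.93%, 2.57% and 2.30% of all genes. These contrasts share their WT or Tet2 het libraries, and with 3 libraries a group and spreads of this width they allow sizeable differences.

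The widest of these differences were in the presenting genes of Tet2 het. Ciita was at 1.94, 2.03 and 1.85 CPM in WT, 12.3, 2.67 and 8.30 in Tet2 het, 5.002, 0.998 and 1.24 in Tet2 KO, and 3.41, 2.56 and 1.79 in URE het. The log2 difference of Ciita between Tet2 het and WT was 1.99 ± 0.83 (edgeR unadjusted p = 0.0303, edgeR adjusted p = 1.00). Cd74 had 17.9, 25.5 and 37.3 CPM in WT, 99.4, 35.2 and 82.5 in Tet2 het, 48.8, 8.38 and 17.3 in Tet2 KO and 21.7, 22.8 and 13.6 in URE het. Tet2 het replicate 2 fell inside the WT range and the other Tet2 het libraries above it. The log2 difference of Cd74 was 1.43 ± 0.79 for Tet2 het against WT and -1.54 ± 0.79 for Tet2 KO against Tet2 het. H2-Aa was at 16.4, 19.2 and 23.4 CPM in WT and 89.8, 24.1 and 60.0 in Tet2 het (1.56 ± 1.02), and at 27.1, 16.6 and 9.96 in URE het and 44.8, 6.19 and 14.4 in Tet2 KO. The median over the 10 genes was 0.82 for Tet2 het against WT and -0.85 for Tet2 KO against Tet2 het, where the median of all tested genes was 0.00 and -0.01.

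With the URE deletion alone, H2-Ob had the lowest value: 6.05, 4.65 and 3.06 CPM in URE het against 7.90, 9.54 and 10.2 in WT. The log2 difference was -1.01 ± 0.78 (edgeR adjusted p = 1.00). H2-Oa was at 1.47, 1.63 and 1.53 CPM in URE het against 1.79, 1.97 and 2.49 in WT (-0.43 ± 0.47). The presenting genes gave differences of -0.62 ± 1.06 (H2-Ab1) to 0.41 ± 0.81 (Ciita), and the median over the 10 genes was -0.25 against -0.01 for all genes. With both Tet2 copies lost, the differences from WT ran from -0.54 ± 0.78 (H2-Ob) to 0.52 ± 0.36 (H2-DMb1), with a median of 0.06.

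**Figure D2:**
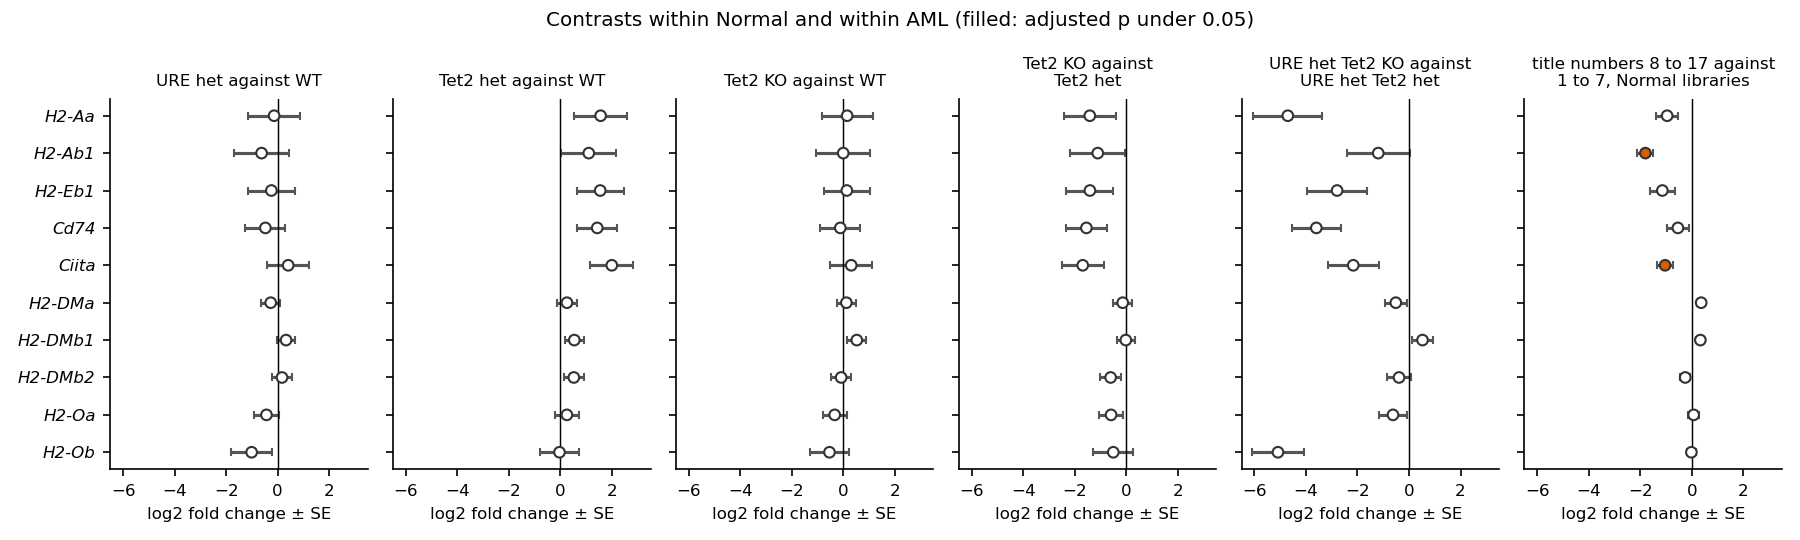
Points give the log2 fold change and bars its SE for each of the 10 genes in 6 contrasts that do not set AML against Normal, and filled points passed an adjusted p under 0.05. The 2 filled points are H2-Ab1 (-1.80) and Ciita (-1.04) between title ranges, and bars of the presenting genes are about as long as their differences in the single mutants.

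In the AML libraries the I-A and I-E chains and Cd74 were below all Normal libraries in 3 or 4 of 5. H2-Aa, the I-A alpha chain, had 6.19, 21.3 and 89.8 CPM (lowest, median and highest) in Normal. It had 0.0650 and 10.8 CPM in URE het Tet2 het replicates 1 and 2, and 0.381, 0 and 0.272 CPM in URE het Tet2 KO replicates 1, 2 and 3. The 0 is no count in that library, which allows up to 0.0860 CPM (3 counts), and the other low values rest on 2 to 9 counts. Replicate 2 of URE het Tet2 het, with 507 counts, was inside the Normal range, and the other 4 were below all 12 Normal libraries. The fitted log2 difference of AML from Normal was -4.59 ± 0.93 (24.1-fold), and -7.76 without URE het Tet2 het replicate 2, so its size depends on that library.

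Cd74, the invariant chain, repeated this picture at a higher level. It had 8.38, 24.2 and 99.4 CPM in Normal. It had 0.520 and 12.2 CPM in the URE het Tet2 het replicates, and 0.465, 0.287 and 0.817 CPM in the 3 URE het Tet2 KO replicates. The same library was in the Normal range and the other 4 were below it, and the log2 difference was -4.08 ± 0.69, or -5.90 without that library. H2-Eb1, the I-E beta chain, had 0.566, 2.82 and 14.6 CPM in Normal, 0.0976 and 1.83 in the URE het Tet2 het replicates and 0.0846, 0.258 and 0.0605 in the URE het Tet2 KO replicates (-3.36 ± 0.77, or -5.003 leaving out replicate 2 of URE het Tet2 het). The low H2-Eb1 values rest on 2 to 9 counts. H2-Ab1, the I-A beta chain, differed in 1 respect. With 3.39, 13.2 and 61.2 CPM in Normal, it had 0.715 and 5.22 CPM in the URE het Tet2 het replicates and 3.64, 0.143 and 0.272 CPM in the URE het Tet2 KO replicates (-3.01 ± 0.86, or -4.05 leaving out replicate 2 of URE het Tet2 het). URE het Tet2 KO replicate 1 was thus in the Normal range for H2-Ab1 and below it for its partner H2-Aa.

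Ciita had 0.998, 2.29 and 12.3 CPM in Normal. It had 0.0976 and 1.85 CPM in the URE het Tet2 het replicates and 0.0423, 0.315 and 0.272 CPM in the URE het Tet2 KO replicates, from 1 to 11 counts in the 4 low libraries and 87 in the other. The log2 difference was -2.73 ± 0.65, or -4.38 without the library at 87 counts. The library with Ciita in the Normal range was the one with all the presenting genes in that range. In bulk RNA, fewer cells that express the genes and less RNA per cell cannot be told apart, for these values and those below.

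**Figure D3:**
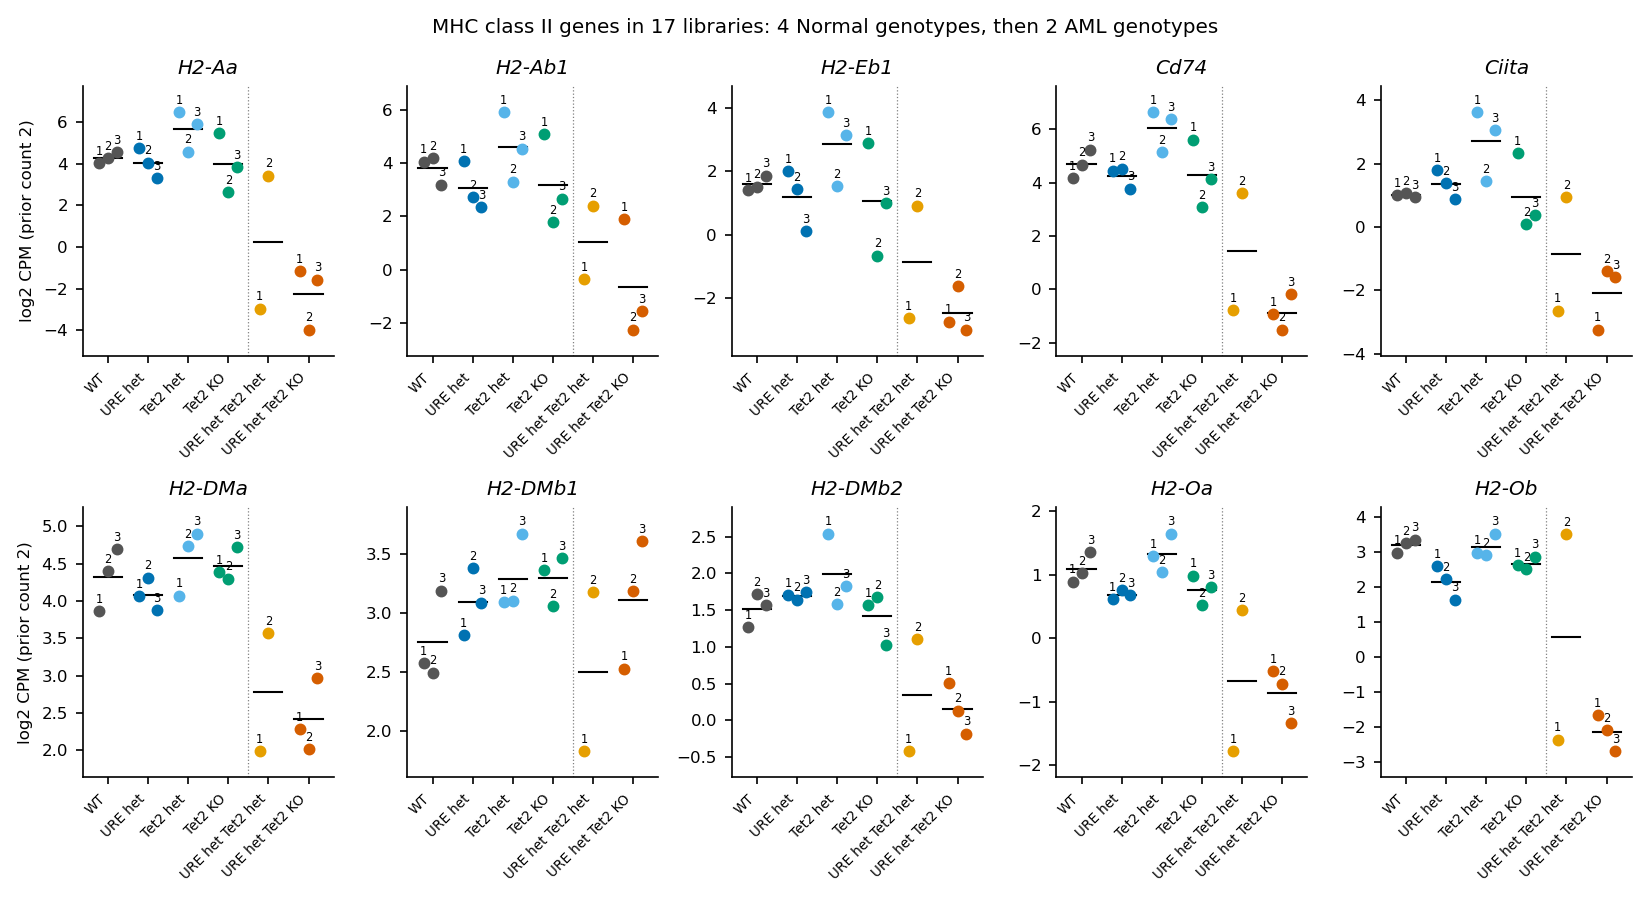
Each panel plots log2 CPM (prior count 2) of a class II gene by genotype; points are libraries, small numbers are replicates, black lines are group means, and a dotted line parts Normal from AML genotypes. Replicate 2 of URE het Tet2 het sits with or near the Normal libraries for most genes, the other 4 AML libraries sit low, and H2-DMb1 shows no such drop.

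The subunits of H2-DM parted. H2-DMa, its alpha chain, had 14.5, 20.3 and 29.8 CPM in Normal, 3.90 and 11.8 CPM in the URE het Tet2 het replicates and 4.82, 3.99 and 7.77 CPM in the URE het Tet2 KO replicates. All 5 AML libraries were below all Normal libraries, and the log2 difference was -1.66 ± 0.27, or -2.18 without URE het Tet2 het replicate 2. H2-DMb1, a beta chain, had 5.57, 8.52 and 12.7 CPM in Normal, 3.48 and 8.98 in the URE het Tet2 het replicates and 5.71, 9.03 and 12.2 in the URE het Tet2 KO replicates. Only URE het Tet2 het replicate 1 was below the Normal range, and the log2 difference was -0.22 ± 0.24, or -0.65 without URE het Tet2 het replicate 2. H2-DMb2, the other beta chain, had 1.97, 3.09 and 5.76 CPM in Normal, 0.683 and 2.08 in the URE het Tet2 het replicates and 1.35, 1.03 and 0.817 in the URE het Tet2 KO replicates (-1.36 ± 0.29, or -1.88 without the same library). The ratio of H2-DMa to H2-DMb1, per kb, was 0.844 to 1.85 in Normal and 0.215 to 0.642 in AML, so the groups did not overlap in this ratio. H2-DMb1 and H2-DMb2 transcripts were identical at 94.6% of 1219 aligned bases, with the longest identical run 221 bases, so reads may have been shared between them and their counts are less certain.

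The subunits of H2-O also differed in how low they were. H2-Oa had 1.36, 1.85 and 3.06 CPM in Normal, 0.228 and 1.30 CPM in the URE het Tet2 het replicates and 0.634, 0.545 and 0.333 CPM in the URE het Tet2 KO replicates, so all 5 were below all Normal libraries (-1.61 ± 0.35, or -2.49 without URE het Tet2 het replicate 2). H2-Ob had 3.06, 7.41 and 11.5 CPM in Normal. It had 0.130 and 11.5 CPM in the URE het Tet2 het replicates and 0.254, 0.172 and 0.0907 CPM in the URE het Tet2 KO replicates (-2.81 ± 0.65, or -5.54 without replicate 2 of URE het Tet2 het). In 4 libraries it rested on 3 to 6 counts, and in URE het Tet2 het replicate 2, with 540 counts, it was at the top of the Normal range. The ratio of H2-Oa to H2-Ob, per kb, was 0.789 to 1.91 in Normal. Of the AML libraries, 4 had ratios of 6.69 to 14.02, above all Normal libraries, and URE het Tet2 het replicate 2 had 0.432, below them.

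Counted over the set, edgeR passed 9 of 10 genes as lower in AML, where 4.02% of 19951 genes were lower and 6.94% higher, 11% in all. Since the genes were chosen on this contrast, nothing is read from that count. The median log2 difference of the 10 was -2.77 against 0.05 for all genes. Without URE het Tet2 het replicate 2 it was -4.22, and without URE het Tet2 het replicate 1 it was -2.31. In both fits the lone remaining library of that genotype is assumed to vary like the rest. In title numbers 8 to 17 alone the median was -1.93. The compound genotypes set against each single mutant they contain, which share libraries, gave medians of -3.46 (URE het Tet2 KO against Tet2 KO), -3.20 (against URE het), -2.32 (URE het Tet2 het against Tet2 het) and -1.27 (against URE het).

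Taken singly, the AML libraries fell into no order by genotype. URE het Tet2 het replicate 1 had 10 of 10 genes below all 12 Normal libraries, and URE het Tet2 KO replicates 1, 2 and 3 had 8, 9 and 9. URE het Tet2 het replicate 2 had 2, H2-DMa and H2-Oa, and a median log2 difference from the Normal mean of -0.66. The medians of the other 4 were -4.08, -3.25, -3.11 and -3.88 in the order just given. Of all tested genes 21.6%, 15.3%, 22%, 18.5% and, for URE het Tet2 het replicate 2, 15.2% were below all Normal libraries. H2-DMa and H2-Oa were the genes of the set below all Normal libraries in all 5 AML libraries, as were 0.692% of tested genes. In at least 4 of 5, it was 8 of 10 genes and 5.58% of tested genes.

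Class II RNA and Spi1 RNA were both low in 3 of the 5 AML libraries and parted in the other 2. URE het Tet2 KO replicate 1 had Spi1 at 98.6 CPM, within the Normal range, and 8 class II genes below theirs. URE het Tet2 het replicate 2 had Spi1 at 34.9 CPM, below all Normal libraries, and 8 class II genes within theirs. The other 3 AML libraries, with Spi1 at 7.83 to 21.6 CPM, were low in both. Within Normal, Spi1 was lower in title numbers 8 to 17 (-1.07 ± 0.093, edgeR adjusted p = 4.4e-06), as were H2-Ab1, Ciita and 19.3% of 18282 genes.

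**Figure D4:**
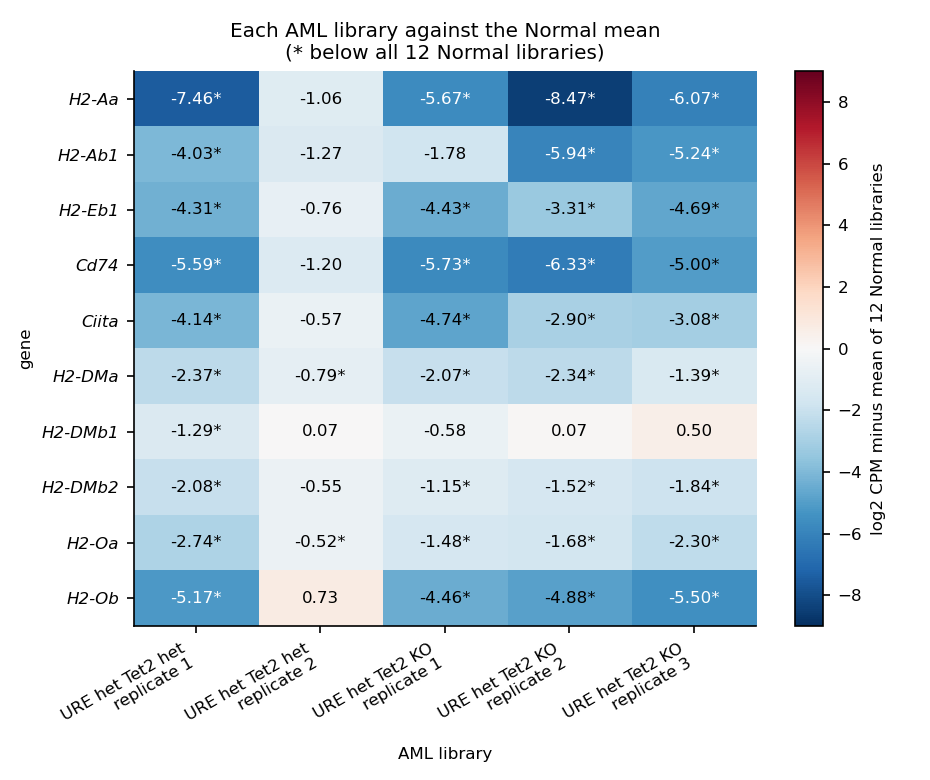
Cells give log2 CPM minus the mean of the 12 Normal libraries for the 10 genes (down) in the 5 AML libraries (across), with an asterisk where the library was below all 12 Normal libraries. The column of URE het Tet2 het replicate 2 has 2 asterisks and the other columns 8 to 10.

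The Tet2 dose within leukaemia was tested between the compound genotypes, both of them AML. URE het Tet2 KO was lower than URE het Tet2 het by -5.09 ± 1.03 for H2-Ob (edgeR adjusted p = 0.139), -4.71 ± 1.34 for H2-Aa (0.246) and -3.60 ± 0.96 for Cd74 (0.226), and none of the 10 genes passed. At an unadjusted p under 0.05 it was 5 of 10 genes (H2-Aa, H2-Eb1, Cd74, Ciita and H2-Ob) and 11.7% of all genes. Across all genes edgeR passed 0.01%. DESeq2 passed 2 of the 10, Cd74 and H2-Ob, beside 335 of 19951 genes. With limma voom it was 0 of the 10 and 0 of all genes. The difference rests on URE het Tet2 het replicate 2. Without it the median over the 10 genes turned from -1.68 to 0.77, and without replicate 1 of that genotype it was -2.52. In title numbers 8 to 17, which keep replicate 2 alone for that genotype, the median was -3.06. Each of these fits leaves 1 library of that genotype, so only sizes are given.

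Whether the URE deletion went with a larger fall on the Tet2 KO than on the Tet2 het background was tested as a difference of differences. None of the 10 genes passed with edgeR, DESeq2 or limma voom, as in all 19951 genes with edgeR (0.0%). At an unadjusted p under 0.05 it was H2-Ob alone, at -4.59 ± 1.27 (edgeR adjusted p = 1.00), beside 4.62% of all genes. This also turned with URE het Tet2 het replicate 2, without which H2-Ob was at 0.87 and the median of the 10 went from -0.43 to 1.64. Without replicate 1 of that genotype the median of the 10 was -1.16, and in title numbers 8 to 17 it was -1.05. Each of these fits leaves 1 library of that genotype, so only sizes are given.

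The low values did not extend to the genes between the class II genes. From H2-Oa to H2-Eb2, chr17:34092340-34341412 (GRCm38), 14 genes were tested, of which 8 belong to the set. The other 6 were Brd2, a chromatin reader, Psmb8 and Psmb9 of the immunoproteasome, the peptide transporter genes Tap1 and Tap2, and the noncoding Gm15821. Their log2 differences of AML from Normal ran from -0.33 to 0.60 with a median of 0.02, beside a median of -2.23 for the 8. None of the 6 passed with edgeR, beside 11% of all tested genes. Tap1 and Psmb8, between H2-DMb1 and H2-Ob, were at 0.27 ± 0.24 and -0.33 ± 0.14. H2-DMa overlaps Brd2 on the other strand, H2-Oa overlaps BC051537, H2-Eb1 Gm20513 and Ciita Dexi. The strand setting of the counts is not known, so these counts are less certain.

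**Figure D5:**
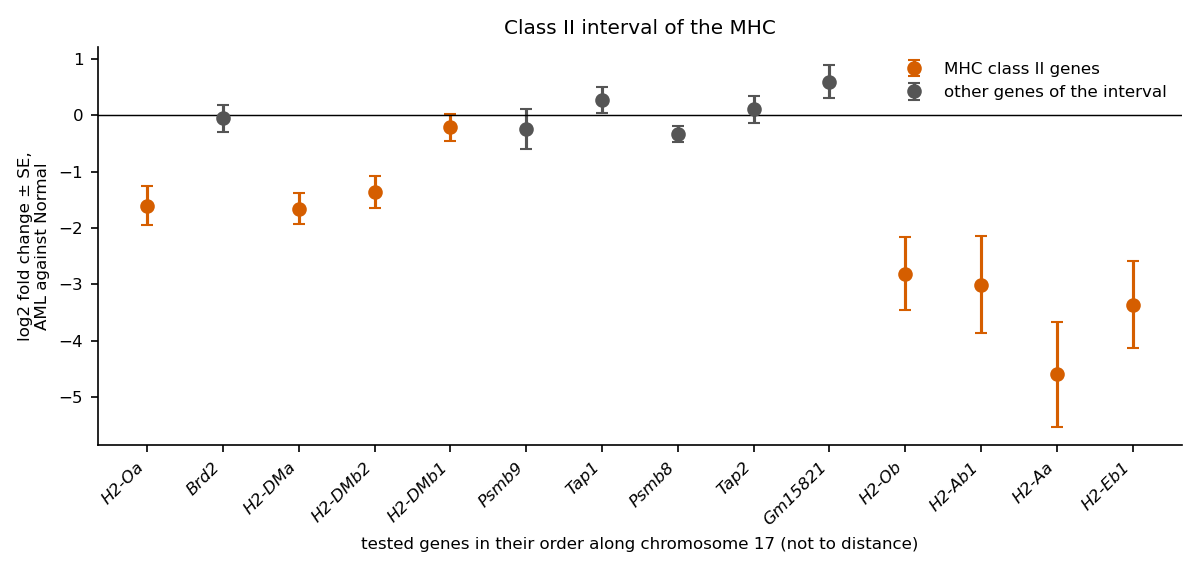
Points give the log2 fold change of AML against Normal and bars its SE for the 14 tested genes from H2-Oa to H2-Eb1, in their order along chromosome 17 but not to distance. The 6 genes outside the set lie between -0.33 and 0.60, and among the 8 class II genes H2-DMb1 (-0.22) alone lies with them.

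Most partners of Ciita did not pass between AML and Normal, which does not show that they were at Normal levels. Rfx5, for 1, was at 9.82 to 23.9 CPM in AML and 11.5 to 17.4 in Normal. Among all 19951 tested genes, 11% passed between AML and Normal, 6.94% higher and 4.02% lower. Of 10 transcription factors and cofactors of the module, Rfxank, a subunit of the RFX complex, rose in AML (0.82 ± 0.17, edgeR adjusted p = 0.0093) and Nfya, which binds the Y box, fell (-0.67 ± 0.19, edgeR adjusted p = 0.0394, passing in 14 of 24 alternatives). The other 8, among them Rfx5 (0.17 ± 0.19), Creb1 (-0.28 ± 0.13) and Nfyb (-0.13 ± 0.14), did not pass, and the median was 0.06. Of 10 regulators of Ciita, Irf4, a factor of B and dendritic cells, fell by 2.57 ± 0.45 on the log2 scale (edgeR adjusted p = 0.00346). Spi1 (-1.25 ± 0.52), Irf8 (0.51 ± 0.40) and Irf1 (-0.14 ± 0.26) did not pass, and the median was -0.23.

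Genes that make the peptides or cut the invariant chain changed in both directions. Of 10, Sppl2a, a protease that clears the last stub of Cd74, fell (-0.78 ± 0.14, edgeR adjusted p = 0.00401). Ctss, which trims the invariant chain in B and dendritic cells, fell (-0.89 ± 0.24), as did Ifi30, a lysosomal thiol reductase (-0.97 ± 0.27). Ctsl, which trims it in thymic epithelium, rose (1.09 ± 0.33). The edgeR adjusted p of these 3 was 0.0283, 0.0347 and 0.049, and they passed in 20, 16 and 10 of 24 alternatives. Of 8 tested genes of surface turnover and costimulation, Cd274, the ligand of PD-1, rose (1.00 ± 0.24, edgeR adjusted p = 0.0154), and Cd86 (-1.03 ± 0.43), Cd80 (-2.71 ± 0.84) and Marchf1, a ligase that removes class II from the surface (-0.74 ± 0.34), did not pass. Of 14 tested class I genes and MHC neighbours, Nlrc5, the class I counterpart of Ciita, rose (1.14 ± 0.31, edgeR adjusted p = 0.0294, passing in 17 of 24 alternatives). B2m, the light chain of class I, fell (-0.77 ± 0.23, edgeR adjusted p = 0.0423, passing in 10 of 24), and H2-K1 (0.41 ± 0.23) and H2-D1 (0.36 ± 0.28) did not pass. Between AML and Normal 11% of all tested genes passed. The costimulation list (1 of 8) and the class I list (1 higher and 1 lower of 14) lay near that share, so nothing is read from those counts. None of these 52 genes passed with edgeR in any single-mutant contrast or between the compound genotypes. Over all tested genes 0.0% passed in each single-mutant contrast and 0.01% between the compound genotypes.

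Rows of the table named by a class II gene identifier followed by enh, whose coordinates and meaning are not given, numbered 21 for 8 of the 10 genes, and 3 had a Normal median of at least 10 counts. The H2-Aa row had 0.433, 1.03 and 3.20 CPM (lowest, median, highest) in Normal. It had 139 counts in URE het Tet2 het replicate 2 and 0 or 1 count in the other 4 AML libraries. An H2-Ab1 row had 0.365, 1.21 and 3.26 CPM in Normal, and likewise 139 counts in that library and 0 or 1 in the other 4. The H2-DMa row differed, with 28 to 70 counts in all 5 AML libraries. It had 0.298, 0.590 and 1.11 CPM in Normal, 0.911 and 1.49 in URE het Tet2 het replicates 1 and 2, and 1.65, 1.18 and 1.09 in URE het Tet2 KO replicates 1, 2 and 3. The first and the last of these AML libraries were within the Normal range.

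Markers of several cell types were lower in the AML libraries, those of cells that carry class II and others. Summed over 10 B cell markers the level was 9.45 to 31.8 CPM in Normal and 1.69 to 13.04 in AML, where 7 of 10 fell with edgeR, beside 4.02% of all genes. Pax5, a B cell factor, was at 0 in 1 of 12 Normal and 4 of 5 AML libraries. Summed over 11 dendritic cell markers the level was 33.1 to 128 CPM in Normal and 15.3 to 72.7 in AML, with 3 of 11 lower. Within Normal it was highest in Tet2 het replicates 3 (128) and 1 (114), the libraries with the most Ciita, and 50.9 in Tet2 KO replicate 2, the library with the least, but lower still in URE het replicates 2 and 3 (34.0 and 33.1). Flt3, also a progenitor marker, made up a large part of the dendritic cell sum: its Normal median was 50.3 CPM, beside 75.6 for the sum. In URE het Tet2 KO replicate 2, with the highest dendritic cell sum in AML (72.7), Flt3 was at 67.5 CPM. Of the other markers Cd209a was at 0 in 4 of 5 AML libraries and Siglech in 2, but Zbtb46 and Ccr9 were within the Normal range in all 5. URE het Tet2 het replicate 2 had the highest B cell sum in AML (13.04). Its dendritic cell sum was 61.7, with Flt3 at 43.6. Summed monocyte and macrophage markers were at 421 to 1185 CPM in Normal and 493.3 to 2316 in AML. Most of this was Ly6c2, at 275 to 1063 CPM in Normal and 392 to 2208 in AML. Of the 8 tested, 0 were higher with edgeR and 1 was lower. Ccr2 was at 55.5 to 158 CPM in Normal and 17.1 to 49.4 in AML. Neutrophil markers summed to 9750.4 to 36533 CPM in Normal and 4265 to 8813 in AML, without overlap, and 4 of 5 fell with edgeR. Most of this sum was S100a8, at 7017 to 29869 CPM in Normal and 3525 to 6711 in AML. Ly6g, Ltf, Camp and Mmp8 each overlapped between Normal and AML. Mast cell and basophil markers summed to 86.7 to 244 CPM in Normal and 19.3 to 88.7 in AML, and 3 of 5 fell. The part of these cell types in the class II values was not tested.

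The genes whose pattern was most like the mean of the standardized class II levels were looked for among 9971 genes outside the set averaging 1 log2 CPM or more. Over all 17 libraries they were Kmo (r = 0.96), Dntt (0.96), F2r, Epb41l4b, Gimap1, Il7r, Slc9a7, Serpini1, Itsn1 and Srgap3, the last at 0.94. The class II genes were chosen as low in AML, so this ranking favours genes low in the same AML libraries. Within the 12 Normal libraries r of these 10 genes ran from 0.19 (Slc9a7) to 0.81 (Il7r), and was 0.59 for Dntt. Dntt, the terminal transferase of lymphoid progenitors, had 6.16 to 43.7 CPM in Normal, 26.9 in URE het Tet2 het replicate 2 and at most 0.296 in the other 4 AML libraries. Il7r, the interleukin 7 receptor of lymphoid progenitors, had 1.76 to 10.5 CPM in Normal, 2.42 in that library and at most 0.575 in the other 4. Over the 12 Normal libraries alone the 10 were other genes, with 0 shared: Gpr35 (0.93), Ccnd1 (0.90), Fyn, Nfatc2, Itgax, Rnd3, Fgd2, Soga1, Ifi205 and Itgb7. Itgax, the CD11c chain of dendritic cells, had an r of 0.87 and 2.26 to 13.2 CPM in Normal.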

How the data were processed

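The authors deposited 1 table of raw counts for 17 libraries of polyadenylated RNA, aligned with STAR to GRCm38 per the submitters' processing notes. The annotation, counting tool and strand setting are not given in the sources used here. Of 96004 rows, 47643 are genes, of which 47224 matched a symbol in GENCODE vM21, which may not be the authors' release; lengths, coordinates and overlaps come from it. The other 48361 rows, named as enhancers, stayed out of library sizes and tests.

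Gene counts were filtered (minimum count 10, minimum total 15), scaled by TMM and fitted in edgeR 4.0.16 (R 4.3.3) with 6 group means over 17 libraries and robust quasi-likelihood F tests. P-values were adjusted by Benjamini-Hochberg over 19951 genes, or over 18282 in the fit of title range within Normal, with 0.05 as the threshold. SE is the log2 fold change over the square root of F. Log2 CPM used a prior count of 2. Alternatives were DESeq2 1.42.0, its size factors, limma 3.58.1 voom with quality weights, no filter, non-robust fits, the compared groups alone, title range as a term, title numbers 8 to 17 alone, and each library left out. The fit was tested on simulated data.

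The genes, pathway lists and markers were chosen with earlier results of these data known. Beyond the 10 genes, pathway genes were named where they passed in a tested comparison (at most 4 a list, by smallest p); those named that did not pass were chosen after their values were seen. Genes most alike were the 10 with the highest Pearson r. Promoters are from RefSeq on GRCm38.p6.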

Additional observations from a re-analysis of the deposited data

Results flagged for a closer look

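Cd74 and H2-Ob each had an AML library far from the other 4, both times URE het Tet2 het replicate 2. Cd74 was at 3.61 log2 CPM there, the highest of the 5, and its gap to the next library was 0.741 of the whole range. H2-Ob was at 3.53 log2 CPM, with a gap of 0.833 of the range. A gap above 0.71 of the range is what sets a library apart among 5. Chance sets about 1 in 20 such groups apart, and the 10 genes share their libraries, so these are not independent.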

How the results depend on the processing

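No paired analysis was possible because the labels give no replicate numbers within groups, and those used here follow accession order. Counts of class II genes passing with 1 library left out were 6 to 9 for AML against Normal, 0 to 0 in the 4 contrasts of single mutants, 0 to 3 between the compound genotypes, 0 to 1 for the difference of differences and 1 to 4 between title ranges; a lone library of a genotype is then assumed to vary like the others. Between the compound genotypes 2 genes passed with DESeq2 and 6 in title numbers 8 to 17, where 1 passed for the difference of differences. The looser X core, chosen after seeing the data, gave 5 promoters in place of 3. The cause of these changes was not tested.

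Some log2 differences that did not pass changed sign. In the difference of differences H2-Oa was at 0.021 with DESeq2 size factors and H2-Ab1 at 0.019 with DESeq2. With limma voom, Tet2 het against WT was 0.12 for H2-Ob, Tet2 KO against WT was -0.94 for H2-Aa, -1.41 for H2-Eb1 and -0.68 for Ciita, and H2-Ob was 0.048 between title ranges. Its difference of differences was 0.32 for H2-Eb1, 1.19 for Ciita, 0.053 for H2-DMa, -0.13 for H2-DMb2 and 0.20 for H2-Oa. With title range as a term, Tet2 KO against WT was 0.045 for H2-Ab1 and -0.017 for H2-DMa, and against Tet2 het 0.023 for H2-DMb1. In title numbers 8 to 17, AML against Normal was 0.0090 for H2-DMb1, Tet2 KO against WT was -1.19 for H2-Aa, -1.50 for H2-Eb1, -0.73 for Ciita and -0.18 for H2-DMa, and the difference of differences was -0.83 for H2-DMb2.

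Ranges with 1 library left out follow for values that changed sign. For URE het against WT they were H2-Aa -0.57 to 0.15, H2-Eb1 -0.72 to 0.14. For Tet2 het against WT they were H2-Ob -0.26 to 0.088. For Tet2 KO against WT they were H2-Aa -0.93 to 0.60, H2-Ab1 -1.60 to 0.48, H2-Eb1 -1.24 to 0.65, Cd74 -1.06 to 0.31, Ciita -0.80 to 0.69, H2-DMa -0.082 to 0.32, H2-DMb2 -0.20 to 0.094. For Tet2 KO against Tet2 het they were H2-DMa -0.34 to 0.060, H2-DMb1 -0.11 to 0.23. For the compound genotypes they were H2-Aa -5.68 to 1.61, H2-Ab1 -3.84 to 0.88, H2-Eb1 -3.67 to 0.51, Cd74 -4.52 to 0.027, Ciita -3.05 to 1.15, H2-DMa -1.09 to 0.52, H2-DMb2 -0.96 to 0.65, H2-Oa -1.36 to 1.14, H2-Ob -6.06 to 0.37. For the difference of differences they were H2-Aa -4.28 to 3.01, H2-Ab1 -2.73 to 1.97, H2-Eb1 -2.27 to 1.90, Cd74 -2.98 to 1.56, Ciita -1.37 to 2.83, H2-DMa -0.96 to 0.65, H2-DMb2 -0.36 to 1.25, H2-Oa -0.78 to 1.72, H2-Ob -5.57 to 0.87. For the title ranges they were H2-Oa -0.051 to 0.20, H2-Ob -0.11 to 0.20. For AML against Normal they were H2-DMb1 -0.65 to 0.039. At 0 to 11 counts in the low AML libraries, levels of H2-Aa, H2-Eb1, Ciita and H2-Ob there are set by counting error. So are those of H2-Ab1 in URE het Tet2 KO replicates 2 and 3, at 5 and 9 counts.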
